A study of Homo sapiens with 4 samples.

Results

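The 10 genes described here encode the enzymes that write and erase DNA methylation and the core of Polycomb repressive complex 2. They are DNMT1, DNMT3A, DNMT3B, UHRF1, TET1, TET2, TET3, EZH2, EED and SUZ12. They were taken by symbol from the 33538 genes listed in every matrix. Their RNA was followed by single-cell RNA sequencing (scRNA-seq) in 4 libraries made from LNCaP, an androgen-dependent human prostate cancer line from a lymph node metastasis, and from lines derived from it. LNCaP cells had received the vehicle DMSO at 0.1% for 48 h, and LNCaP-ENZ48 cells had received 10 µM of the androgen receptor antagonist enzalutamide (ENZ) for 48 h. RES-A and RES-B are ENZ-resistant derivatives of LNCaP, both kept in medium with 10 µM ENZ. According to the study's methods, RES-A arose by passaging in rising ENZ and RES-B by continuous exposure to RD-162, a related antagonist. Each group was 1 library, so no difference had a replicate check and no test was run.

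Maintenance methylation copies the methyl marks of CpG sites onto newly made DNA. DNMT1 carries it out, and UHRF1 brings DNMT1 to hemimethylated sites behind the replication fork. DNMT3A and DNMT3B place methyl groups on sites that had none, while the TET dioxygenases oxidise 5-methylcytosine and so start its removal. In Polycomb repressive complex 2 (PRC2), EZH2 is the methyltransferase for lysine 27 of histone H3, SUZ12 holds the complex together, and EED binds the finished mark and stimulates EZH2. DNMT1, UHRF1 and EZH2 are textbook targets of the E2F factors that switch on genes for DNA replication, and EZH2 is known to be abundant in advanced prostate cancer.

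Levels were unique molecular identifiers (UMIs, each standing for 1 captured RNA molecule) summed over a set of cells of a library and divided by that set's total to give CPM, a unit in which libraries of unequal depth can be compared. A log2 ratio of at least 0.5 in size was used as the fold threshold, and each interval is a 95% interval that covers counting error only. After the study's limits on cells, 1782 of 2358 LNCaP barcodes, 4315 of 4812 LNCaP-ENZ48 barcodes, 4569 of 5156 RES-A barcodes and 4061 of 4907 RES-B barcodes were kept, with 50208831 to 60838227 UMIs per library. LNCaP cells were deeper, with a median of 27080 UMIs against 12138 to 13676 elsewhere, in part because their lower limit was 16000 UMIs against 5000. All libraries expressed the luminal keratins KRT8 (171 to 250 CPM) and KRT18 (433 to 918 CPM) and the prostate factor HOXB13 (92.0 to 157 CPM). The secreted luminal protease KLK3 stood at 718 CPM in LNCaP and 94.97 in LNCaP-ENZ48, against 0.0349 for RES-A and 30.5 for RES-B. Luminal markers as a list of 9 summed to 1213 to 2574 CPM. Against LNCaP, 5 of them were lower and 1 higher by the threshold in LNCaP-ENZ48 (median log2 ratio -2.04). RES-A had 6 lower and 1 higher (median -3.35), and RES-B 7 lower and 2 higher (median -1.13). Of all genes with at least 2 CPM on average, 6.91%, 17.3% and 12.8% were lower and 2.78%, 17.5% and 20.8% higher, in the same order. The 4 basal markers summed to at most 0.299 CPM with 3 or 4 of them at 0. Of 8 immune and stromal markers 3 or 4 were at 0 (2.60 to 3.66 CPM in sum), and of 6 neuroendocrine markers 4 or 5 were at 0 (3.39 to 4.34 CPM in sum).

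The share of cells with any UMI of the proliferation genes MKI67 or TOP2A was 38.7% in LNCaP and 20.7% in LNCaP-ENZ48, compared with 32.1% for RES-A and 31.5% for RES-B. This share depends on depth. When each cell was cut down to 5000 randomly drawn UMIs before it was classed, the shares were 21.2%, 13.8%, 24.0% and 22.4%. Each member was therefore followed in all kept cells and in cells without MKI67 or TOP2A UMIs, and where the classing mattered the value from the thinned definition stands beside it. All 10 members passed the minimum of 2 CPM on average over the 4 libraries that was set for the 11492 genes compared.

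In all cells, 3 of the 10 members were higher in RES-A than in LNCaP by the fold threshold (DNMT1, TET2 and EED) and 2 were lower (DNMT3A and TET1), where 17.5% of all genes compared were higher and 17.3% lower. RES-B had 2 members higher (DNMT1 and TET2), against 20.8% of all genes, and 1 lower (DNMT3A), against 12.8%. After 48 h of ENZ no member was higher, with 2.78% of all genes higher, and UHRF1 was the 1 member lower, with 6.91% of all genes lower. Between the resistant lines, no member stood higher in the RES-B library than in RES-A (17.8% of all genes) and 2 were lower (UHRF1 and EED, 10.2% of all genes). RES-A, RES-B and LNCaP-ENZ48 were all compared with the same LNCaP library, so these comparisons are not independent of each other.

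**Figure D1:**
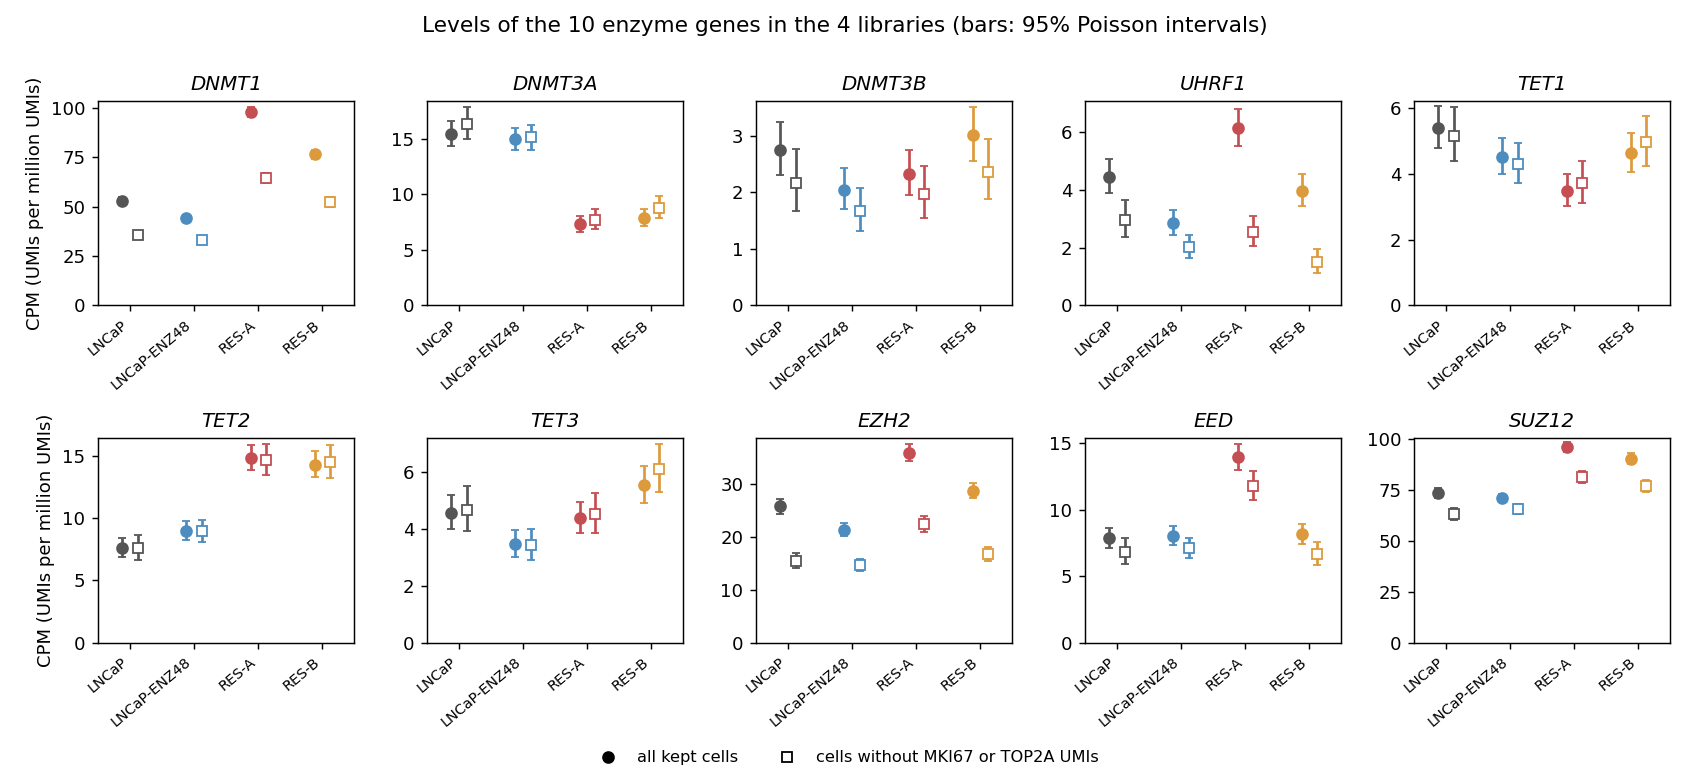
Level of each of the 10 members in CPM (vertical axes from 0, 1 panel per gene) in the 4 libraries. Filled circles are all kept cells, open squares are cells without MKI67 or TOP2A UMIs, and bars are 95% Poisson intervals for counting error. DNMT1 and TET2 stand highest in RES-A and RES-B, DNMT3A stands lowest there, and EED stands apart in RES-A at 14.0 CPM.

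DNMT1 (ENSG00000130816, minus strand, chr19:10133342-10231286 on GRCh38) was measured at 52.8 CPM in LNCaP and 43.97 in LNCaP-ENZ48, against 97.7 for RES-A and 76.5 for RES-B, from 2651, 2675, 5603 and 4022 UMIs. The 4 intervals did not overlap, and both resistant lines stood above both parental libraries. In cells without MKI67 or TOP2A UMIs the levels were lower in every library but in the same order, at 35.6, 33.1, 64.5 and 52.4 CPM. The fold over LNCaP was 1.85 in RES-A, a log2 ratio of 0.89 (0.82 to 0.96) in all cells and of 0.86 (0.75 to 0.96) in cells without the proliferation genes. In RES-B the log2 ratio was 0.54 (0.46 to 0.61) in all cells, and it was 0.56 (0.45 to 0.67) without them, so leaving out these cells moved the ratio by less than its interval in both lines. With TMM scaling, which shifted every RES-B ratio to LNCaP by -0.11, the RES-B value in all cells was 0.43, below the fold threshold. The ENZ48 ratio was -0.26 (-0.34 to -0.19) in all cells and -0.10 (-0.22 to 0.01) in cells without the proliferation genes, and it was -0.14 (-0.24 to -0.04) under the thinned definition.

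Cells were also assigned to cell cycle phases with published S and G2/M gene lists, from which UHRF1 was left out. Within S phase DNMT1 stood at 142 CPM in LNCaP and 143 in LNCaP-ENZ48, compared with 197 for RES-A and 198 for RES-B. The resistant lines were not separated there, with a log2 ratio of RES-B to RES-A of 0.00 (-0.11 to 0.11). In G1 cells the same ratio was -0.29 (-0.38 to -0.20), from 59.4 CPM in RES-A and 48.5 in RES-B, and in G2/M cells it was -0.41 (-0.52 to -0.30), from 157 and 118 CPM. DNMT1 in RES-A over LNCaP was 0.85 in G1, 0.47 in S and 0.97 in G2/M on the log2 scale. The ENZ48 ratios within phases lay between -0.06 and 0.01, and the Poisson intervals of the parental libraries overlapped in each phase. The part of the phase shares in the all-cell ENZ48 ratio of DNMT1 was not tested.

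DNMT3A (ENSG00000119772, minus strand, chr2:25227855-25342590), the main de novo methyltransferase of adult tissue, was at 15.5 CPM in LNCaP and 14.99 in LNCaP-ENZ48, against 7.32 for RES-A and 7.86 for RES-B, from 776, 912, 420 and 413 UMIs. The parental libraries overlapped, the resistant libraries overlapped, and the pairs stood apart. RES-A held a fold of 0.474 of the LNCaP level, a log2 ratio of -1.08 (-1.25 to -0.90), and 5.15% of the genes compared had a lower ratio. The RES-B ratio was -0.98 (-1.15 to -0.80), and 4.64% of genes were lower still. Cells without the proliferation genes gave -1.09 (-1.30 to -0.87) in RES-A and -0.90 (-1.11 to -0.69) in RES-B. DNMT3A was lower in each phase, with log2 ratios to LNCaP of -1.04 in G1, -1.10 in S and -1.17 in G2/M for RES-A, and of -0.83, -1.39 and -1.61 for RES-B. Within RES-B, G2/M cells held less DNMT3A than G1 cells (4.43 against 9.03 CPM, log2 ratio -1.03, -1.53 to -0.56), while in LNCaP the G2/M to G1 ratio was -0.25 (-0.54 to 0.03).

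DNMT3B (ENSG00000088305, plus strand, chr20:32762385-32809359), the de novo enzyme best known from early embryos, was scarce. Its levels of 2.75 CPM in LNCaP and 2.04 in LNCaP-ENZ48, compared with 2.32 for RES-A and 3.01 for RES-B, rested on 124 to 158 UMIs each. Neighbours in the order of its levels were not separated by their interval. Between the ends of that order, RES-B exceeded LNCaP-ENZ48 by a log2 ratio of 0.56 (0.21 to 0.91). In cells without the proliferation genes DNMT3B lay between 1.67 and 2.36 CPM, on 64 to 81 UMIs per library.

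UHRF1 (ENSG00000276043, plus strand, chr19:4903080-4962154) was the member whose comparison between lines depended most on which cells were counted. Over all cells it stood at 4.44 CPM in LNCaP and 2.84 in LNCaP-ENZ48, against 6.14 for RES-A and 3.98 for RES-B, from 223, 173, 352 and 209 UMIs. RES-A was above LNCaP by a log2 ratio of 0.47 (0.22 to 0.72), while RES-B did not separate from LNCaP (-0.16, -0.44 to 0.12). In cells without MKI67 or TOP2A UMIs the levels were 2.97, 2.00, 2.53 and 1.49 CPM, and the order of the libraries was another. There RES-A did not separate from LNCaP (-0.23, -0.67 to 0.20) and RES-B was lower (-0.996, -1.52 to -0.48), with 0.01 and -0.72 under the thinned definition.

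Phase calls drew these values further apart. In S phase UHRF1 was at 18.6 CPM in LNCaP and 13.1 in LNCaP-ENZ48, compared with 27.1 for RES-A and 24.0 for RES-B. In G1 cells it was at 2.60, 1.88, 1.15 and 0.609 CPM, from 93, 94, 44 and 23 UMIs, so the resistant lines were the lowest there and the highest in S. The log2 ratio of RES-A to LNCaP was -1.18 (-1.73 to -0.65) in G1 and 0.54 (0.19 to 0.91) in S phase, and these intervals lay on opposite sides of 0. For RES-B it was -2.09 (-2.82 to -1.42) in G1 and 0.36 (-0.03 to 0.76) in S phase. The S to G1 log2 ratio of UHRF1 was 2.84 (2.41 to 3.27) in LNCaP and 2.80 (2.28 to 3.31) in LNCaP-ENZ48, against 4.56 (4.09 to 5.06) for RES-A and 5.30 (4.65 to 6.004) for RES-B. Neither resistant interval overlapped a parental one, and scoring each library on its own gave 3.01, 2.71, 4.65 and 5.38. Phases were called on cells thinned to 5000 UMIs in every library. LNCaP cells held more UMIs before thinning, and the part of this in the G1 levels was not tested.

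After 48 h of ENZ, UHRF1 was lower by a log2 ratio of -0.64 (-0.94 to -0.35) in all cells and of -0.57 (-1.001 to -0.13) in cells without the proliferation genes. The second value was inside the threshold with TMM or DESeq2 scaling. Within phases the ratio was -0.47 (-0.90 to -0.04) in G1, -0.51 (-1.03 to 0.00) in S and 0.12 (-0.64 to 0.87) in G2/M. The S phase share of cells was 5.49% in LNCaP-ENZ48 against 8.98% in LNCaP, 13.6% in RES-A and 8.94% in RES-B, and its part in the all-cell values was not tested.

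**Figure D2:**
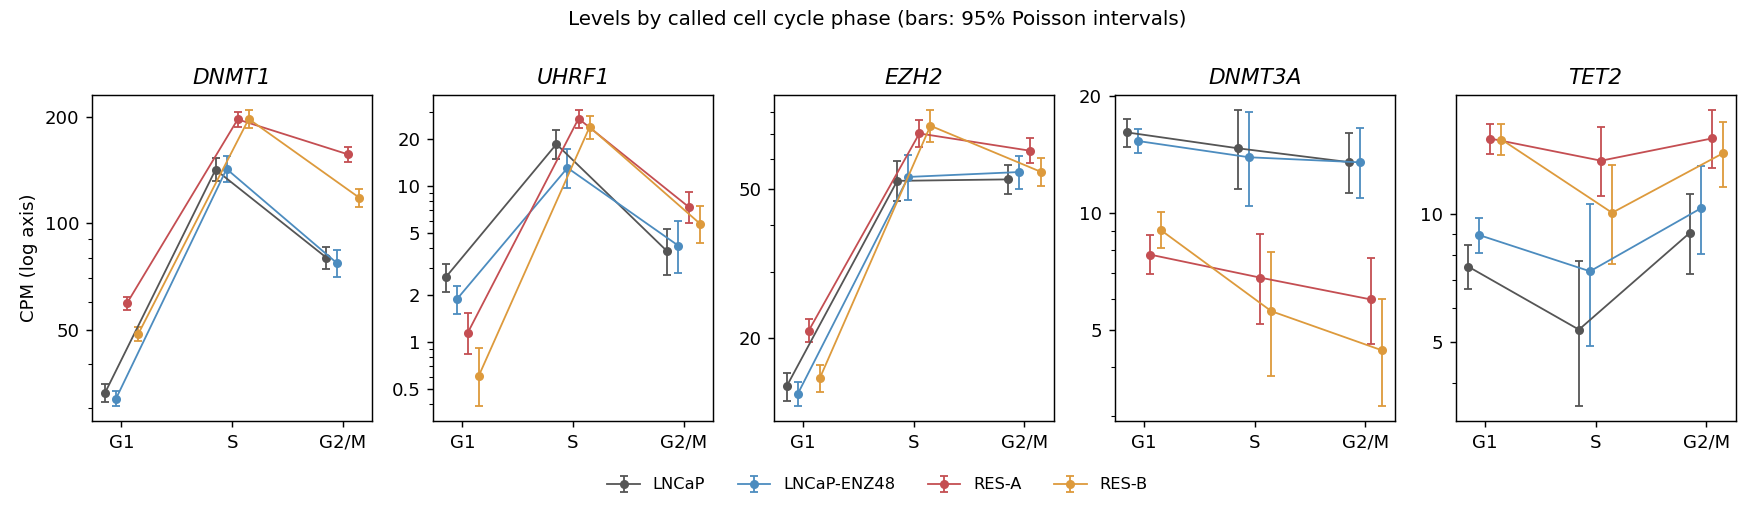
Level in CPM (log axes) of DNMT1, UHRF1, EZH2, DNMT3A and TET2 in cells called G1, S or G2/M, 1 line per library, with 95% Poisson bars. UHRF1 lines cross, with RES-A and RES-B lowest in G1 (1.15 and 0.609 CPM) and highest in S (27.1 and 24.0 CPM), while for DNMT3A and TET2 the resistant points stay on 1 side of the parental ones in every phase, with overlapping bars for TET2 in S and G2/M.

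Among the TET enzymes, TET2 (ENSG00000168769, plus strand, chr4:105145875-105279816), a tumour suppressor in blood cells, was the member that stood higher in both resistant lines. It was at 7.59 CPM in LNCaP and 8.99 in LNCaP-ENZ48, compared with 14.8 for RES-A and 14.3 for RES-B, from 381, 547, 851 and 752 UMIs. Both resistant libraries stood above both parental ones and did not separate from each other (RES-B to RES-A -0.05, -0.20 to 0.09). The fold over LNCaP was 1.96 in RES-A, a log2 ratio of 0.97 (0.79 to 1.15), and 1.89 in RES-B, a log2 ratio of 0.91 (0.73 to 1.10). Cells without the proliferation genes gave the same size of difference, 0.96 (0.73 to 1.19) and 0.94 (0.71 to 1.17). By phase the ratio was 1.00 in G1, 1.32 in S and 0.74 in G2/M for RES-A, and 1.00, 0.92 and 0.62 for RES-B. The 48 h ENZ library was 0.24 (0.05 to 0.44) above LNCaP, in the same direction and under the threshold.

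TET1 (ENSG00000138336, plus strand, chr10:68560337-68694487), which binds CpG islands through its CXXC domain, was at 5.40 CPM in LNCaP and 4.52 in LNCaP-ENZ48, against 3.49 for RES-A and 4.62 for RES-B, from 271, 275, 200 and 243 UMIs. RES-A was the lowest of the 4, with a log2 ratio to LNCaP of -0.63 (-0.90 to -0.36) in all cells and of -0.48 (-0.82 to -0.13) in cells without the proliferation genes, or -0.54 by the thinned definition. RES-B stood 0.41 (0.13 to 0.68) above RES-A and did not separate from either parental library.

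TET3 (ENSG00000187605, plus strand, chr2:73984910-74108176), the TET enzyme of the oocyte and of many adult tissues, was at 4.56, 3.45, 4.38 and 5.54 CPM in the same order of libraries, from 229, 210, 251 and 291 UMIs. LNCaP-ENZ48 was the lowest, at -0.40 (-0.68 to -0.13) from LNCaP. RES-B was the highest, at 0.28 (0.02 to 0.54) from LNCaP in all cells and 0.39 (0.07 to 0.71) in cells without the proliferation genes. By level the 3 TET genes ordered the libraries in 3 different ways, although each order held neighbours that were not separated by their interval.

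EZH2 (ENSG00000106462, minus strand, chr7:148807257-148884321) was at 25.8 CPM in LNCaP and 21.4 in LNCaP-ENZ48, compared with 36.0 for RES-A and 28.8 for RES-B, from 1296, 1303, 2064 and 1513 UMIs. RES-A stood above the others, and the neighbours in the order were each separated by their interval. In cells without MKI67 or TOP2A UMIs the levels were 15.4, 14.6, 22.5 and 16.7 CPM, and there RES-A stood above the other 3. Its log2 ratio to LNCaP was 0.48 (0.38 to 0.58) in all cells and 0.54 (0.38 to 0.71) in cells without the proliferation genes, on either side of the threshold, and 0.49 under the thinned definition. RES-B was at 0.16 (0.05 to 0.27) in all cells and did not separate from LNCaP without the proliferation genes (0.12, -0.06 to 0.30). Within S phase, however, EZH2 in RES-B reached 73.5 CPM against 52.4 in LNCaP (0.49, 0.26 to 0.71), while in G1 it was 15.7 against 14.9 (0.07, -0.10 to 0.24). The ENZ48 ratio of -0.27 (-0.38 to -0.16) in all cells was -0.07, 0.03 and 0.06 within G1, S and G2/M.

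EED (ENSG00000074266, plus strand, chr11:86201212-86278813) was at 7.85 CPM in LNCaP and 8.04 in LNCaP-ENZ48, against 14.0 for RES-A and 8.14 for RES-B, from 394, 489, 800 and 428 UMIs. RES-A stood alone, and the other 3 libraries did not separate from each other over all cells, although in S phase LNCaP-ENZ48 stood at 16.0 CPM against 9.50 in LNCaP (log2 ratio 0.75, 0.18 to 1.33). The fold in RES-A was 1.78, a log2 ratio of 0.83 (0.65 to 1.01) in all cells and of 0.78 (0.54 to 1.03) in cells without the proliferation genes. RES-B stood under RES-A with a log2 ratio of -0.78 (-0.95 to -0.61), or -0.82 (-1.06 to -0.59) without those cells. EED in RES-A exceeded LNCaP in every phase, by 0.83 in G1, 0.99 in S and 0.63 in G2/M.

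Genes next to EED were also lower in RES-B than in RES-A by their median. Among the 50 nearest expressed genes, 25 on each side, the median log2 ratio of RES-B to RES-A was -0.38, against 0.10 over all coding genes. In RES-A over LNCaP the neighbours' median was 0.22, against 0.01 over all coding genes, and in RES-B over LNCaP it was -0.19, against 0.11, where EED itself was at 0.05 (-0.15 to 0.25). For the other 9 members the neighbours' medians differed from those of all coding genes by -0.27 to 0.14. The part of the surrounding region of chromosome 11 in the EED values was not tested.

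SUZ12 (ENSG00000178691, plus strand, chr17:31937007-32001038) was at 73.5 CPM in LNCaP and 71.1 in LNCaP-ENZ48, compared with 96.1 for RES-A and 90.4 for RES-B, from 3689, 4327, 5513 and 4755 UMIs. The resistant libraries stood above the parental ones by less than the threshold, with log2 ratios to LNCaP of 0.39 (0.33 to 0.45) and 0.30 (0.24 to 0.36). Values in cells without the proliferation genes were 0.37 and 0.29. SUZ12 has a near-identical pseudogene copy on the same chromosome, so reads shared between them may be missing from these counts.

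**Figure D3:**
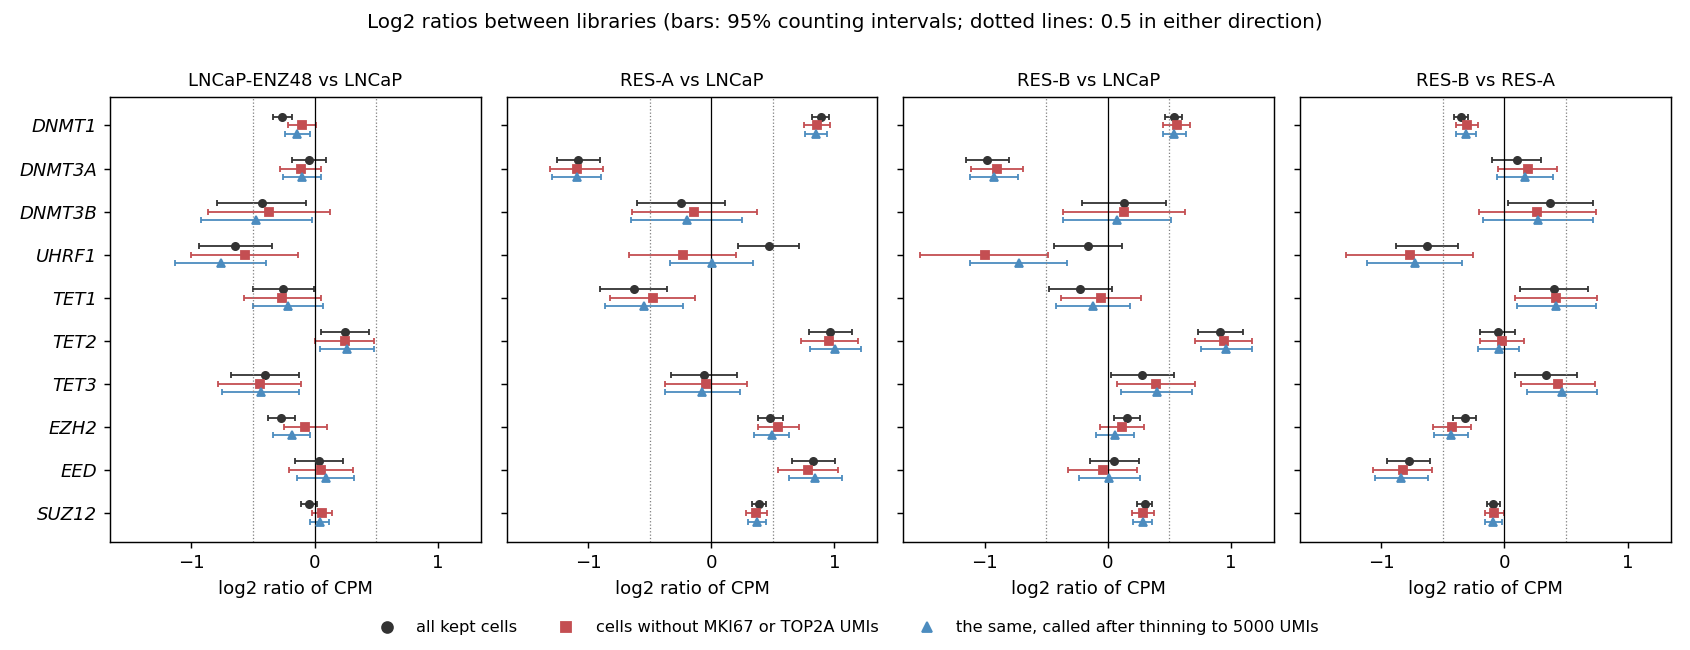
Log2 ratio of each member (rows) in 4 comparisons (panels), with 95% counting intervals, for all kept cells, cells without MKI67 or TOP2A UMIs, and cells without them after thinning to 5000 UMIs. Dotted lines mark the threshold of 0.5 in both directions. DNMT3A lies near -1 and TET2 near 1 in both resistant lines under all 3 choices of cells, and UHRF1 shifts to the left in the panels that hold a resistant line when cells with MKI67 or TOP2A UMIs are left out.

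Counted over cells without MKI67 or TOP2A UMIs, 4 of 10 members were higher in RES-A than in LNCaP (DNMT1, TET2, EED and EZH2, against 19.5% of all genes) and 1 was lower (DNMT3A, against 15.8%). RES-B had 2 members higher (DNMT1 and TET2, against 22.7%) and 2 lower (DNMT3A and UHRF1, against 12.2%). The 48 h ENZ library had 0 higher (3.23% of all genes) and 1 lower (UHRF1, 5.53%). RES-B against RES-A again had 0 higher (17.3%) and 2 lower (UHRF1 and EED, 10.7%). Under the thinned definition RES-A had 3 higher (18.8% of all genes) and 2 lower (16.1%), with EZH2 at 0.49 and TET1 at -0.54.

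The members divided by how they followed proliferation inside each library. The classing after thinning, given first here, was chosen after seeing the data. With cells classed after thinning, 6 of the 10 were higher by at least 0.5 on the log2 scale in cells with MKI67 or TOP2A UMIs in each of the 4 libraries, where 9.95% to 17.1% of all genes were. These were DNMT1, DNMT3B, UHRF1, EZH2, EED and SUZ12. DNMT3B in LNCaP was at -0.997 when cells were classed on all their UMIs and levels came from the thinned cells. In those classes it held only 74 and 64 UMIs even before thinning. Under the thinned definition EZH2 had log2 ratios of 1.61 in LNCaP and 1.87 in LNCaP-ENZ48, against 1.47 for RES-A and 1.74 for RES-B. DNMT1 had 1.31, 1.35, 1.28 and 1.24. EED (0.54 to 0.74) and SUZ12 (0.51 to 0.65) were less tied to these cells than EZH2, the catalytic subunit of the same complex.

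UHRF1 was again unequal between the libraries. Its ratio of cells with to cells without the proliferation genes was 0.90 (0.49 to 1.31) in LNCaP and 1.60 (1.13 to 2.07) in LNCaP-ENZ48, compared with 1.80 (1.49 to 2.11) for RES-A and 2.04 (1.64 to 2.46) for RES-B. The 2 resistant intervals lay wholly above that of LNCaP and overlapped that of LNCaP-ENZ48. With cells classed on all their UMIs, the ratio was 1.14 (0.75 to 1.55) in LNCaP and 1.53 (1.08 to 1.98) in LNCaP-ENZ48. RES-A then had 2.34 (1.99 to 2.69) and RES-B 2.53 (2.07 to 3.02), with both intervals above both parental ones. By the thinned classing, DNMT3A, TET1, TET2 and TET3 did not follow proliferation upward, with ratios between -0.59 and 0.33 in all libraries. The lowest of these were in RES-B, where TET3 was at -0.59 (-1.05 to -0.15) and DNMT3A at -0.47 (-0.84 to -0.11). When cells were classed on all their UMIs, 4 members passed 0.5 in LNCaP, 5 in LNCaP-ENZ48 and 6 in each resistant line, against 9.12% to 12.3% of all genes.

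**Figure D4:**
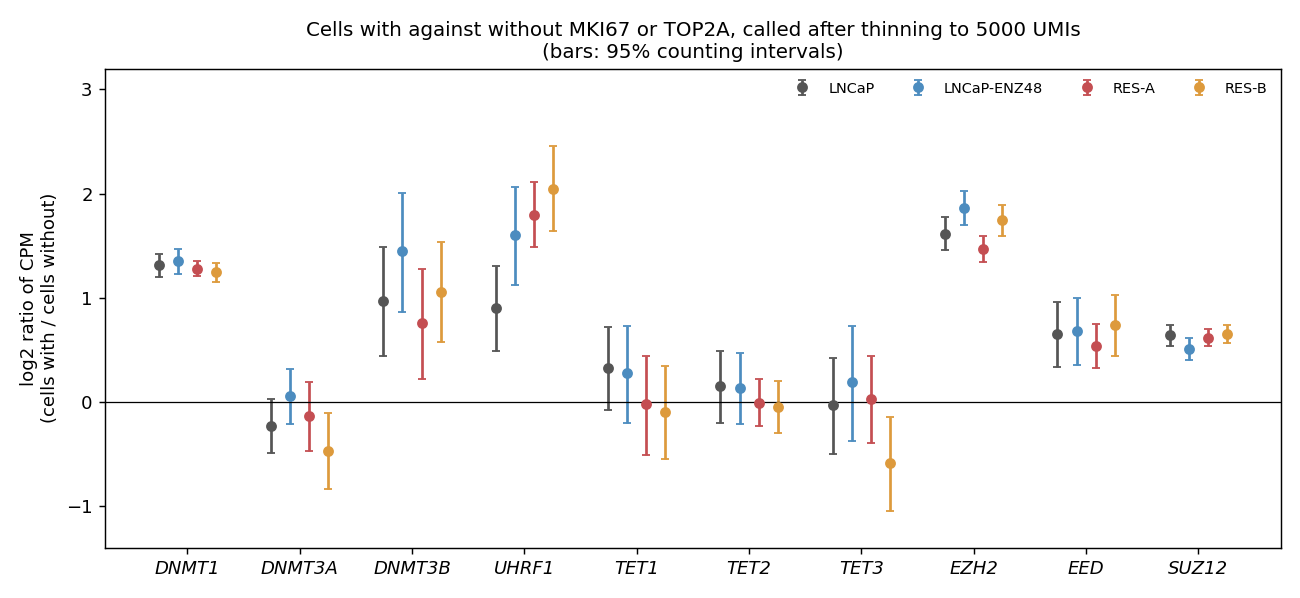
Log2 ratio of each member's CPM in cells with MKI67 or TOP2A UMIs to that in cells without, in each library, with cells classed after thinning to 5000 UMIs and 95% counting intervals as bars. This classing was chosen after seeing the data. DNMT1, DNMT3B, UHRF1, EZH2, EED and SUZ12 lie above 0.5 in all 4 libraries. With cells classed on all their UMIs and levels from thinned cells, which is not drawn, DNMT3B in LNCaP was at -0.997. It held 74 and 64 UMIs in those classes before thinning. DNMT3A and the TET genes lie between -0.59 and 0.33, with TET3 in RES-B the lowest.

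By phase, DNMT1 and UHRF1 peaked in S, while EZH2 was high in both S and G2/M. The S to G1 log2 ratio of DNMT1 was 2.10 in LNCaP and 2.16 in LNCaP-ENZ48, against 1.73 for RES-A and 2.03 for RES-B, and its G2/M to G1 ratio was 1.27 to 1.40. EZH2 had S to G1 ratios of 1.81, 1.92, 1.74 and 2.23 and G2/M to G1 ratios of 1.83, 1.96, 1.59 and 1.82. UHRF1 in G2/M was at 3.83 CPM in LNCaP and 7.31 in RES-A, far under its S phase level in both. Even among cells called S, 33.8% to 39.7% held no MKI67 or TOP2A UMI, so the set without these genes was not free of replicating cells.

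Over the 12 pools of cells formed by 4 libraries and 3 phases, genes whose log2 CPM was among the most like that of DNMT1, of 7460 genes, were FAM111B (Pearson r = 0.986), PCNA (0.984), CARHSP1 (0.982) and MCM4 (0.980). For UHRF1 they were NR2C2AP (0.981), E2F1 (0.967), CENPX (0.961), HELLS (0.954) and MCM5 (0.953). For EZH2 they were YEATS4 (0.993), RAD1 (0.993), MYBL2 (0.990), PRIM1 (0.989) and UBE2T (0.988). PCNA, MCM4, HELLS, MCM5 and PRIM1 belong to the list that called the phases, and pools of 1 library share its depth. Between members, the pattern of DNMT1 was most like that of SUZ12 (0.953), and EZH2 was likewise nearest to SUZ12 (0.934). DNMT3A and TET2 ran opposite to each other (-0.748).

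Promoter sequence is printed for DNMT1, UHRF1 and EZH2, the 3 members with the highest S to G1 ratios in every library. Their G2/M to G1 ratios differed, at 1.28, 0.56 and 1.83 in LNCaP. The letters searched were the classical E2F-type element in 4 spellings, TTTCCCGC, TTTCGCGC, TTTGCCGC and TTTGGCGC, on both strands, in RefSeq windows of GRCh38.p14 from 250 bases before to 50 bases after each annotated start. In each line below, the stretch from 120 bases before the start through its first 30 bases is written 5′ to 3′ on the gene's strand with the element in capitals. It begins 2 bases before the start in DNMT1 and 14 bases before the start in UHRF1, both on the opposite strand, and 1 base after the start in EZH2 on the gene's own strand.
DNMT1, minus strand of chr19:10194924-10195073: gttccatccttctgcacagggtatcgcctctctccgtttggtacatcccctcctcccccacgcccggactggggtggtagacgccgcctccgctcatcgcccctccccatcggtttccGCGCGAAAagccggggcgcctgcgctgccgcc
UHRF1, plus strand of chr19:4909381-4909530: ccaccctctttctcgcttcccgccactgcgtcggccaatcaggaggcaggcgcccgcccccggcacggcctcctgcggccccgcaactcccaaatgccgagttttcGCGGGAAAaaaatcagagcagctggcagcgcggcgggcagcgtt
EZH2, minus strand of chr7:148884262-148884411: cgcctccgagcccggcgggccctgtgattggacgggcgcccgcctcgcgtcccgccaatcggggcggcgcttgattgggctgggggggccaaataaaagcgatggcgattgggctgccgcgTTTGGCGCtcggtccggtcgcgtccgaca

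An element of this kind also lay 189 bases before the SUZ12 start, so 4 of the 10 members (40%) held 1 in their first listed window, against 908 of 27305 genes (3.33%). Counting every window, 5 of the members' 22 (22.7%) held 1, against 1164 of 35116 (3.31%). None of these spellings was found in the windows of DNMT3A, DNMT3B, TET1, TET2, TET3 or EED. A match is a run of letters and does not show that a factor binds there.

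The partners of these enzymes did not share 1 direction. From each list, the genes named are those with the highest and lowest ratio to LNCaP among its genes of at least 10 CPM on average. Beside the counts that follow, 17.5% of all genes compared were higher and 17.3% lower in RES-A, with a median of 0.02, and 20.8% were higher and 12.8% lower in RES-B, with a median of 0.10. Of 10 other PRC2 subunits, 1 was higher and 3 were lower in RES-A than in LNCaP, with a median log2 ratio of -0.04, and 2 were higher and 1 lower in RES-B (median 0.01). JARID2, a subunit that helps to recruit PRC2, was the lowest in both, at 28.1 CPM in LNCaP and 23.4 in LNCaP-ENZ48, compared with 10.1 for RES-A and 18.7 for RES-B. Its ratio to LNCaP was -1.47 (-1.62 to -1.33) in RES-A and -0.58 (-0.70 to -0.47) in RES-B. RBBP4, the histone-binding subunit, was the highest, at 93.6, 95.5, 115 and 158 CPM, with ratios of 0.30 and 0.76.

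PRC1, the partner complex that ubiquitinates histone H2A, was represented by 21 subunits. In RES-A 1 was higher and 4 were lower (median -0.10), and in RES-B 1 was higher and 2 were lower (median -0.09), beside 17.3% and 12.8% of all genes lower. BMI1, a RING finger subunit known as a stem cell factor, was the 1 that stood higher, at 7.61 CPM in LNCaP and 6.89 in LNCaP-ENZ48, against 15.3 for RES-A and 17.9 for RES-B. Its ratios to LNCaP were 1.01 (0.83 to 1.19) and 1.23 (1.06 to 1.41). The corepressor BCOR was the lowest in RES-A at -0.96 (-1.12 to -0.81) and stood at -0.11 in RES-B. RYBP, a subunit of variant PRC1, was the lowest in RES-B at -0.54 (-0.65 to -0.44) and stood at -0.56 in RES-A and -0.54 after 48 h of ENZ.

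Enzymes that act against Polycomb were followed as a list of 11, of which 10 passed the minimum level. In RES-A 0 were higher and 3 lower (median -0.23), and in RES-B 0 were higher and 2 lower (median 0.02). Against RES-A, RES-B had 3 higher and 0 lower, where 17.8% of all genes were higher and 10.2% lower. KDM6A, the X-linked demethylase that removes the EZH2 mark, was at 70.5 CPM in LNCaP and 102 in LNCaP-ENZ48, compared with 38.9 for RES-A and 68.7 for RES-B. Its ratio to LNCaP was 0.53 after 48 h of ENZ, -0.86 (-0.93 to -0.78) in RES-A and -0.04 in RES-B, so LNCaP-ENZ48 and RES-A lay on opposite sides of LNCaP. BAP1, the H2A deubiquitinase, was the highest of the list in RES-A at 0.20 (0.03 to 0.37). In RES-B the methyltransferase KMT2C was the highest at 0.42 and NSD2, which methylates lysine 36 of histone H3, the lowest at -0.53.

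Of 15 readers and cofactors of DNA methylation, 14 passed the minimum. RES-A had 1 higher and 2 lower (median 0.08) and RES-B had 0 higher and 1 lower (median 0.13). The gene above the threshold in RES-A was CDCA7, a partner of the remodeller HELLS in maintenance methylation, at 8.60 CPM in LNCaP and 5.98 in LNCaP-ENZ48, against 16.3 for RES-A and 10.1 for RES-B (0.92, 0.76 to 1.09, in RES-A). CDCA7 and HELLS also belong to the S phase list. The methyl-CpG binding protein MBD1 was the lowest in RES-A at -0.61, and MBD2 and the repair glycosylase MBD4 were the highest and lowest in RES-B at 0.45 and -0.41.

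Enzymes that supply the methyl donor and 2-oxoglutarate, the cosubstrate of the TETs, gave 3 higher and 2 lower of 13 in RES-A (median 0.03) and 4 higher and 0 lower in RES-B (median -0.02). The folate enzyme MTHFD1 was the highest in RES-A at 0.69 (0.60 to 0.78). In RES-B SHMT1, which moves carbon from serine to folate, was the highest at 0.85, and AHCY, which clears the by-product of methylation, the lowest at -0.44.

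**Figure D5:**
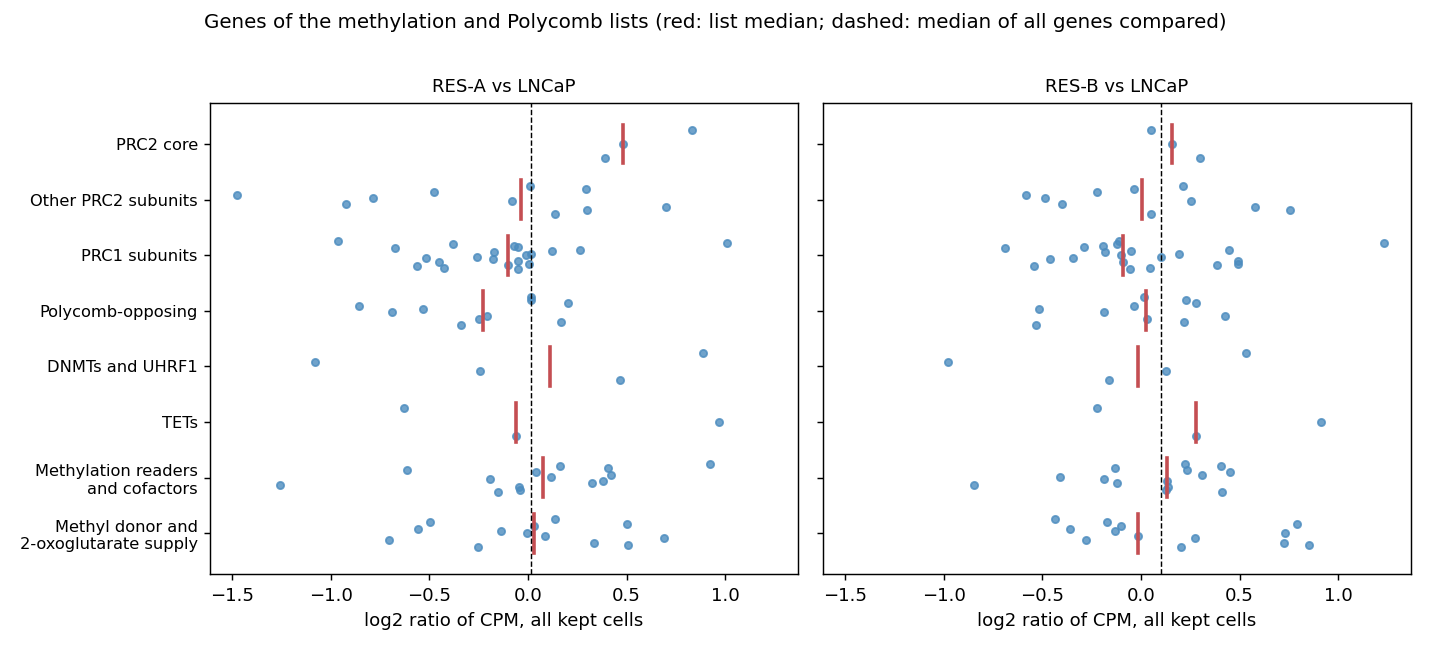
Log2 ratio of CPM of RES-A and of RES-B to LNCaP (panels, all kept cells) for the genes of 8 lists, the members included, 1 dot per gene past the minimum of 2 CPM. Red marks are list medians and the dashed line is the median of all 11492 genes compared. The PRC2 core has its median at 0.48 in RES-A and 0.16 in RES-B.

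Of the S phase genes other than UHRF1, 17 of 41 were higher and 2 lower in RES-A (median 0.39 beside 0.02 over all genes). In RES-B 13 were higher and 2 lower, but the median of 0.13 was close to the 0.10 of all genes. After 48 h of ENZ 0 were higher and 15 lower (median -0.39 beside -0.08), where 6.91% of all genes were lower. The replication clamp PCNA was the highest in RES-A, at 1.29 (1.22 to 1.35), and the replication licensing inhibitor GMNN in RES-B, at 1.07 (0.98 to 1.15), with ATAD2 the lowest in both at -0.41 and -0.47. G2/M genes gave 1 of 53 higher and 9 lower in RES-A (median -0.18), 3 higher and 9 lower in RES-B (median -0.10), and 0 higher and 41 lower after 48 h of ENZ (median -0.66). CDK1 was the highest of these in RES-A at 1.61, TUBB4B in RES-B at 0.54, and CENPA the lowest in both at -1.07 and -0.998. In cells without MKI67 or TOP2A UMIs the G2/M medians were above 0 in both resistant lines. RES-A had 24 higher and 1 lower (median 0.41 beside 0.06 over all genes), where 19.5% of all genes were higher and 15.8% lower. RES-B had 23 higher and 3 lower (median 0.32 beside 0.13), where 22.7% were higher and 12.2% lower. Under the thinned definition RES-A had 12 higher and 5 lower (median 0.16), beside 18.8% and 16.1% of all genes. RES-B then had 7 higher and 10 lower (median -0.05), beside 21.9% and 12.6%. Summed over the S phase list, cells without MKI67 or TOP2A UMIs held 511 CPM in LNCaP and 462 in LNCaP-ENZ48, compared with 649 for RES-A and 623 for RES-B. When this set was narrowed to cells called G1, the DNMT1 ratio to LNCaP was 0.85 for RES-A against 0.56 for RES-B, and the EZH2 ratio 0.45 against 0.03. The part of G2/M genes in the DNMT1 and EZH2 values of the whole set was not tested.

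Genes known as methylated in prostate cancer were mostly under the minimum of 2 CPM, which 3 of 8 passed. Of these, 0 were higher and 1 lower in RES-A (median 0.05) and none passed the threshold in RES-B (median 0.17). The DNA repair gene MGMT was the highest, at 0.30 in RES-A and 0.29 in RES-B, and RASSF1 the lowest, at -0.53 and -0.18. Of 6 genes reported as repressed by EZH2 in prostate cancer, 3 passed, with 0 higher and 2 lower in RES-A (median -0.88) and 1 higher and 1 lower in RES-B (median 0.21). CDH1, or E-cadherin, was the highest of that list among genes of at least 10 CPM, at 0.14 (0.09 to 0.19) and 0.21 (0.16 to 0.27). EZH2 itself was at 0.48 and 0.16 in the same comparisons.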

How the data were processed

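Living cells had been sorted, and 3′ libraries were made from them with the 10x droplet method. With Cell Ranger 3.0.2, run on a prebuilt GRCh38 reference, the authors turned the reads into UMI counts, and they deposited these raw counts as 4 matrices of 33538 genes. Reads that fit more than 1 gene are not counted by Cell Ranger, so the SUZ12 counts are uncertain. Groups came from the sample titles. Cells were kept by the study's limits per library, which were 3000 to 7000 genes, 16000 to 50000 UMIs and under 15% mitochondrial UMIs in LNCaP. The other libraries had limits of 1500 to 5000 genes and 5000 to 25000 UMIs, with under 15%, 17% and 20% mitochondrial UMIs in LNCaP-ENZ48, RES-A and RES-B. Doublets were not removed, and library pairs shared 2 to 9 barcodes among kept cells.

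UMIs were summed per library and class of cells. CPM were given exact Poisson intervals and log2 ratios exact conditional binomial (Clopper-Pearson) intervals, at 95%, both covering counting error only. Zero counts were raised to 3 UMIs, which no member needed. The study's test over cells treats cells as replicates and was left out. Phases came from scanpy 1.11.5 on cells thinned to 5000 UMIs, with 2 G2/M symbols matched through RefSeq synonyms. FAM64A was matched to PIMREG. HN1 was matched to MTRNR2L1, which is not the G2/M gene meant, and its part in the phase calls and G2/M values was not tested. Coordinates were from GENCODE on GRCh38 and promoter windows from RefSeq on GRCh38.p14. Scaling alternatives used TMM factors (edgeR 4.0.16) and DESeq2 1.42.0 size factors. Other alternatives changed the cell limits, thinning, the class of cells, the phase scoring, the minimum level and the fold threshold, and 1 of them (cells with against without MKI67 or TOP2A by the thinned definition) was chosen after seeing the data. Python 3.11.15, numpy 2.4.6, scipy 1.17.1, pandas 2.3.3, matplotlib 3.10.9 and R 4.3.3 were used. The code for ratios and intervals was tested on counts simulated with Poisson error only. That check did not cover variation between cells or between cultures. The genes named were the 10 members, the highest and lowest of each other list among genes of at least 10 CPM, the 5 genes most like DNMT1, UHRF1 and EZH2, MKI67, TOP2A and the cell type markers. The members and lists were chosen with earlier results of these data known. A few genes that this rule would name are not reported here.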

Additional observations from a re-analysis of the deposited data

How the results depend on the processing

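Each group was 1 library, so the values describe these libraries and their intervals leave out variation between cultures. LNCaP cells were the deepest by sequencing and by their cell limits, which makes a cell without MKI67 or TOP2A UMIs a stricter class there. The lowest levels (DNMT3B, UHRF1, TET1 and TET3, at 2.04 to 6.14 CPM) rested on 124 to 352 UMIs per library. No paired analysis was possible because each group had 1 library.

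Member ratios past the fold threshold kept their direction under every alternative run, except 1. This was DNMT3B between LNCaP cells with and without MKI67 or TOP2A, classed on all their UMIs. Its log2 ratio was 0.74, and -0.997 with levels from cells thinned to 5000 UMIs, and the cause was not tested. DNMT3B held 74 UMIs in the cells with and 64 in the cells without these genes before thinning. Thinning cut all UMIs of these classes from 20577932 and 29630899 to 3.445e+06 and 5.465e+06, so the thinned ratio rests on few UMIs. Removing the cell limits moved 0 of 120 ratios by more than their interval. Using 1 filter for all libraries, or leaving out the 5% of cells with most UMIs, moved 0 of 80 each. TMM factors moved 6 of 80, DESeq2 size factors 8 of 80 and thinning 24 of 120, besides the reversed DNMT3B ratio. That reversed ratio left its interval too. TMM and DESeq2 scaling shifted all ratios to LNCaP by 0.10 in both cases for LNCaP-ENZ48, by -0.05 and -0.04 for RES-A and by -0.11 and -0.10 for RES-B.

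Counts of members past the fold threshold were small, and those that moved by more than 1.5 times are given first. No shares of all genes stand beside the counts in this paragraph, so they cannot be judged against a background. In all cells, a threshold of 0.3 gave 3 lower after 48 h of ENZ, 6 higher in RES-A, and 3 higher and 4 lower in RES-B against RES-A, while a threshold of 1 gave 0 in every count but the 1 lower in RES-A (DNMT3A). TMM or DESeq2 scaling left 1 higher in RES-B, thinning gave 1 higher and 2 lower after ENZ and 1 in each direction for RES-B against RES-A, and 1 filter for all libraries left 1 lower there. In cells without MKI67 or TOP2A UMIs, a threshold of 0.3 gave 3 lower after ENZ, 2 lower in RES-A and 2 higher in RES-B against RES-A, and a threshold of 1 gave 0 apart from 1 lower in RES-A. TMM or DESeq2 scaling gave 0 lower after ENZ, 2 lower in RES-A and 1 higher in RES-B, and thinning gave 2 lower after ENZ, 3 lower in RES-A, 1 higher in RES-B and 1 higher in RES-B against RES-A. Of these cells, those called G1 gave 0 lower after ENZ, 2 lower in RES-A and 1 higher in RES-B against RES-A, and the thinned definition gave 2 lower in RES-A. Moves of at most 1.5 times were also seen. In all cells, leaving out the 5% of cells with most UMIs gave 4 higher in RES-A, and thinning gave 4 higher in RES-A and 3 higher in RES-B. In cells without MKI67 or TOP2A UMIs, a threshold of 0.3 gave 5 higher in RES-A, 3 higher in RES-B and 3 lower in RES-B against RES-A. In RES-A, TMM factors, the thinned definition and cells called G1 each left 3 higher, and RES-B had 3 lower after thinning and 3 higher in cells called G1. Smaller sums give thinned values wider counting error, and the other causes were not tested.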
